A study of Bos taurus with 9 samples.

Results

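Heat shock proteins and the DNAJ chaperones that work with them were described in 3 tissues of Yan yellow cattle bulls aged 24 months. The members are all genes with a probe set of exactly 1 annotated symbol that begins with HSPA, HSPB, HSPD, HSPE, HSPH, HSP90 or DNAJ, and CRYAB, which is the small heat shock protein alpha-B-crystallin. The rule found 48 genes of 9155 named on the array, measured by 75 probe sets, and the brightest probe set over the 9 arrays stood for each gene. Abdominal adipose tissue, subcutaneous adipose tissue and longissimus dorsi muscle, the skeletal muscle along the back, had 3 arrays each. All tissue was collected at slaughter from males of that breed kept under the same conditions, and no treatment is named. The labels speak of 9 bulls and do not tie samples to animals, so a p-value reflects only how far these arrays spread, which may be partly technical. Values are the log2 of the deposited intensity of a 1-colour Affymetrix bovine array, and levels were compared between tissues for 1 probe set at a time, not between probe sets.

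Molecular chaperones bind unfolded or newly made proteins and keep them from clumping. Small heat shock proteins hold such clients without using ATP, and in striated muscle they sit on the Z-disc, desmin and actin filaments. HSP70 proteins then refold the client in ATP-driven cycles that DNAJ proteins (HSP40) start and that exchange factors of the HSP110 type reset, while HSP90 finishes selected clients such as kinases and, in muscle, myosin. The endoplasmic reticulum and the mitochondria have HSP70, HSP90 or HSP60 proteins of their own. The question the tissues pose here is which of these families differ between fat and muscle, and between the fat depots.

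The tissues carried the markers of their labels. The summed intensity of 14 muscle fibre markers was 3870 to 7448 on the abdominal arrays and 4019 to 5001 on the subcutaneous arrays, against 98165 to 107629 in muscle. Of these 14, 12 were lower and 2 higher in adipose tissue in limma's moderated test at an adjusted p under 0.05. In each depot 8 of them had a mean log2 intensity under 6. The summed intensity of 10 adipocyte markers was 49492 to 55012 in abdominal and 50078 to 56534 in subcutaneous fat, against 4193 to 8560 in muscle. Muscle replicate 2 had the least of the adipocyte markers. Adipose arrays had a median 0.12 above that of muscle arrays, and the depots' medians were -0.01 apart (abdominal minus subcutaneous). RNA integrity was read from the 3'/5' signal ratio of the GAPDH controls, which spanned 1.26 to 1.62 on abdominal arrays and 1.21 to 1.74 on subcutaneous ones, against 0.937 to 1.01 in muscle. That of the actin controls was 2.24 to 5.69 on abdominal arrays and 3.86 to 8.17 on subcutaneous ones, against 0.963 to 1.04 in muscle. These ratios moved with every comparison of fat with muscle given here, the depots overlapped in both, and their part in the results was not tested. A group mean under 6 is called near background, where a fold change is taken as not exact in size. That level was chosen and is no measured background. Array medians were 5.75 to 5.92 and 46.1% to 49.0% of probe sets exceeded 6, so the label does not mean that a transcript was absent. Of the 48 members 45 exceeded 6 on at least 3 arrays, and the probe sets of DNAJC6, DNAJC22 and HSPBAP1 averaged under 6 in every tissue.

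In adipose tissue, taken as the mean of both depots, 26 of the 48 members were lower than in muscle and 10 were higher, in limma's moderated test at an adjusted p under 0.05. Of all 9155 genes 29.5% were lower and 32% higher by the same rule, and 61.4% passed in either direction. The members' median difference was -0.50 on the log2 scale, beside -0.02 over all genes with 1 probe set each and -0.06 over all 24016 probe sets tested. In a tissue sample a lower value can come from fewer cells of a type or from less RNA per cell, and these cannot be told apart. The families divided sharply in size. Of 6 small heat shock proteins 5 were lower and 0 higher, also at an unadjusted p under 0.05, with a median of -3.32. Among the 42 others 21 were lower and 10 higher, and their median was -0.34. All 5 of the lower small heat shock proteins differed by more than 2, against 2 of the 42 others, DNAJA4 and DNAJB5, and 8.47% of all genes.

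**Figure D1:**
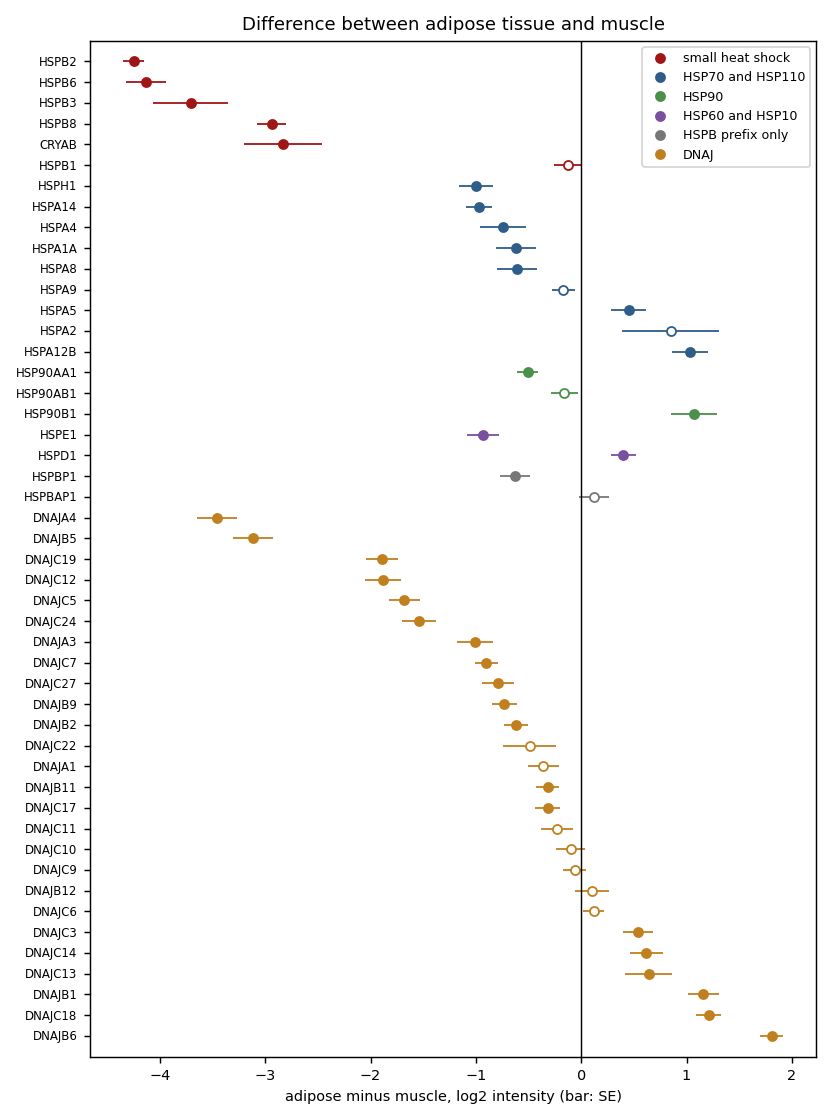
Difference between adipose tissue (mean of both depots) and muscle for each of the 48 members, by family. The horizontal axis is adipose minus muscle in log2 intensity, points are differences, bars are standard errors, and filled points passed an adjusted p under 0.05. The small heat shock proteins other than HSPB1 lie between -4.25 and -2.83, while the HSP70, HSP90 and HSP60 members lie between -1.0 and 1.07.

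HSPB2, a partner of the myotonic dystrophy protein kinase in human and rodent muscle, read 5.66, 5.61 and 5.74 in abdominal fat and 5.70, 5.66 and 5.74 in subcutaneous fat, against 9.90, 9.87 and 10.04 in muscle. All fat arrays lay near background and far under all muscle arrays. The difference was -4.25 ± 0.10 (SE, 3 arrays per tissue; limma adjusted p = 2.16e-09). HSPB6 (Hsp20), which binds actin regulators in smooth and striated muscle, read 6.84, 6.64 and 7.02 in abdominal fat and 7.80, 8.08 and 7.50 in subcutaneous fat, against 11.15, 11.26 and 11.92 in muscle. The 3 tissues did not overlap, with abdominal fat lowest. Adipose tissue differed from muscle by -4.13 ± 0.19 (adjusted p = 2.15e-07).

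HSPB8, which with its co-chaperone BAG3 delivers damaged Z-disc proteins to autophagy, read 9.15, 9.05 and 9.48 in abdominal fat and 9.97, 9.85 and 10.08 in subcutaneous fat, against 12.40, 12.38 and 12.82 in muscle. The order of the tissues was that of HSPB6, again without overlap. The difference of adipose tissue from muscle was -2.94 ± 0.14 (adjusted p = 2.72e-07), which is 7.66-fold. CRYAB, which protects desmin and other filaments, read 10.67, 9.11 and 10.26 in abdominal fat and 11.51, 10.09 and 10.61 in subcutaneous fat, against 13.17, 12.93 and 13.52 in muscle. Its fat arrays spread widely and the depots overlapped, but all lay under muscle. The difference was -2.83 ± 0.37 (adjusted p = 0.000136), with muscle values not far under the highest value on any array, 14.09. CRYAB and HSPB2 are neighbouring genes in the assembly ARS-UCD2.0, and both were lower in fat.

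HSPB3, which forms a complex with HSPB2 in mammalian muscle, read 8.91, 7.23 and 7.67 in abdominal fat and 5.33, 5.18 and 4.31 in subcutaneous fat, against 10.48, 10.05 and 9.91 in muscle. No array of a tissue overlapped another tissue, and subcutaneous fat was near background. The adipose difference from muscle was -3.71 ± 0.36 (adjusted p = 1.76e-05). HSPB1 (Hsp27), an actin-binding chaperone of many cell types, stood apart from the rest. It read 12.93, 12.94 and 12.92 in abdominal fat and 12.79, 12.74 and 13 in subcutaneous fat, against 12.81, 12.94 and 13.30 in muscle. The tissues overlapped, near the top of the scale, and the difference of -0.13 ± 0.13 did not pass (adjusted p = 0.413). A second HSPB1 probe set, near background on all fat arrays (5.74 to 5.92) and at 6.35 to 6.72 in muscle, was lower in adipose tissue (-0.68 ± 0.11, adjusted p = 0.000597), so the probe sets of HSPB1 gave different calls.

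**Figure D2:**
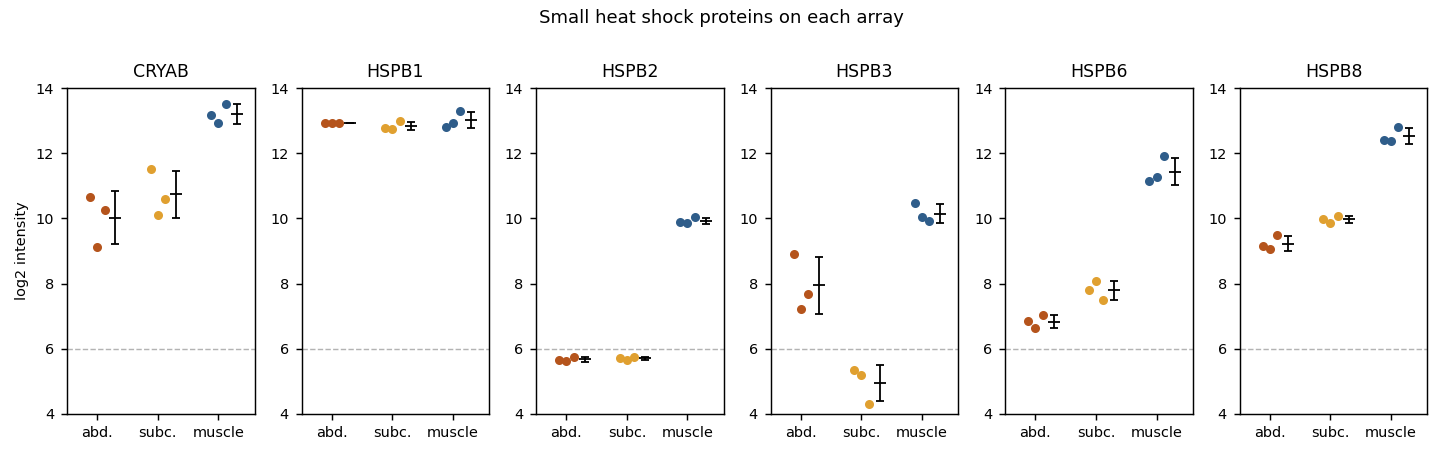
Small heat shock proteins in abdominal fat (abd.), subcutaneous fat (subc.) and muscle. The vertical axis is log2 intensity, each point is 1 array (3 per tissue), black marks are the mean with SD, and the dashed line marks the level of 6 called near background. HSPB1 lies between 12.74 and 13.30 in all tissues, the other 5 are highest in muscle, and HSPB3 is at 7.23 or above in abdominal fat and 5.33 or below in subcutaneous fat.

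In the HSP70 and HSP110 families 5 of 9 genes were lower and 2 higher in the mean of both depots, and their median difference was -0.61. Of all genes 29.5% were lower and 32% higher there. Set against muscle by itself, abdominal fat had 2 of the 9 lower (HSPA14 and HSPH1), where 27.1% of all genes were lower. Subcutaneous fat had 5 of the 9 lower, where 25.9% of all genes were. Between the depots 0 of the 9 passed. The 5 lower in the mean of both depots were HSPA8, the constitutive HSP70 (Hsc70), the stress-inducible HSPA1A, the ribosome-associated HSPA14, and the exchange factors HSPA4 and HSPH1. HSPA8 read 11.16, 11.28 and 11.25 in abdominal fat and 10.19, 10.89 and 11.08 in subcutaneous fat, against 11.33, 11.81 and 11.62 in muscle. Its fat arrays lay just under the muscle arrays, by -0.61 ± 0.19 (adjusted p = 0.0215). The HSPA8 call was lost when muscle replicate 2 or 3 was left out and when arrays were weighted, and its adjusted p reached 0.0923 over the alternatives run at the same threshold.

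HSPH1, which resets HSP70 by exchanging its nucleotide, read 9.28, 9.33 and 8.87 in abdominal fat and 8.93, 8.88 and 8.88 in subcutaneous fat, against 9.98, 9.75 and 10.36 in muscle. It was lower in fat without overlap (-1.0 ± 0.16, adjusted p = 0.000403), and by -0.44 when its probe sets, 3 of them dim, were averaged. HSPA14 differed by -0.97 ± 0.12 (adjusted p = 9.48e-05), with fat arrays between 8.41 and 8.73 and muscle arrays between 9.40 and 9.73. HSPA4 differed by -0.74 ± 0.22 (adjusted p = 0.016) with overlapping arrays. Leaving out muscle replicate 3 ended the HSPA4 call (adjusted p = 0.0566). HSPH1 differed 2.01-fold and HSPA14 1.96-fold.

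HSPA1A was covered by 6 probe sets, more than any other member, and the gene table gives HSPA1B as a synonym, so near-identical copies cannot be told apart. Its brightest probe set read 11.45, 11.20 and 11.90 in abdominal fat and 11.22, 10.58 and 11.07 in subcutaneous fat, against 11.75, 12.03 and 11.79 in muscle. Abdominal replicate 3 lay within the muscle range, and the other fat arrays lay under it. The difference was -0.62 ± 0.19 (adjusted p = 0.0185), and its adjusted p was 0.0762 on leaving out muscle replicate 2. Of its other probe sets 3 were also lower, by -0.84 to -1.64, and 2 dim ones did not pass (0.41 and -0.31).

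Higher in adipose tissue were HSPA12B, an HSP70 relative of endothelial cells, and HSPA5 (BiP), the HSP70 of the endoplasmic reticulum. HSPA12B read 8.18, 8.70 and 8.44 in abdominal fat and 8.20, 8.22 and 8.23 in subcutaneous fat, against 7.66, 7.36 and 6.89 in muscle. The fat arrays were all above the muscle arrays, by 1.03 ± 0.17 (adjusted p = 0.000711). Endothelial markers moved with it, with 7 of 8 higher in adipose tissue, where 32% of all genes were. The summed intensity of these markers was 7186 to 7867 in abdominal and 5192 to 6470 in subcutaneous fat, against 1313 to 1498 in muscle. VWF and KDR averaged under 6 in every tissue, and the part of the endothelial share in HSPA12B was not tested. HSPA5 read 11.21, 10.94 and 10.99 in abdominal fat and 10.89, 11.03 and 11.11 in subcutaneous fat, against 10.75, 10.11 and 10.88 in muscle. The gap to muscle was narrow, at 0.45 ± 0.17 (adjusted p = 0.0474), and it was lost on leaving out any array other than muscle replicate 3 (up to 0.198 without muscle replicate 2). HSPA9 (mortalin), the HSP70 of mitochondria, differed by -0.17 ± 0.11 (adjusted p = 0.231), while its dimmer probe set was lower by limma (-0.42, adjusted p = 0.00723). The 3 dim further probe sets of HSPH1 (-0.29 to -0.21) and 1 of HSPA5 (-0.06) did not pass. HSPA2, known best from the testis, differed by 0.85 ± 0.46 (adjusted p = 0.145), with muscle values as far apart as 7.37 and 9.65.

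Of 3 HSP90 genes 1 was lower in adipose tissue, 1 was higher and 1 did not pass. Cytosolic HSP90AA1, the inducible form, read 12.43, 12.19 and 12.40 in abdominal fat and 12.18, 12.20 and 12.14 in subcutaneous fat, against 12.69, 12.72 and 12.88 in muscle. It was lower in fat, without overlap, by -0.51 ± 0.10 (adjusted p = 0.00224). Its constitutive partner HSP90AB1 differed by -0.16 ± 0.13 (adjusted p = 0.33). HSP90B1 (GRP94), the form of the endoplasmic reticulum, read 10.82, 10.34 and 10.69 in abdominal fat and 10.68, 10.89 and 10.72 in subcutaneous fat, against 9.92, 8.96 and 9.97 in muscle. It was higher in fat without overlap, by 1.07 ± 0.22 (adjusted p = 0.00233), and by 0.75 (adjusted p = 0.00285) without muscle replicate 2, the lowest array.

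The mitochondrial chaperonin HSPD1 (HSP60) and its lid HSPE1 (HSP10), which act as 1 complex and are neighbouring genes in ARS-UCD2.0, differed in opposite directions. HSPE1 read 10.88, 11.19 and 10.96 in abdominal fat and 10.62, 10.68 and 10.70 in subcutaneous fat, against 11.86, 12.03 and 11.39 in muscle. It was lower in fat without overlap (-0.93 ± 0.15, adjusted p = 0.000509). HSPD1 read 11.76, 11.93 and 11.91 in abdominal fat and 11.32, 11.73 and 11.59 in subcutaneous fat, against 11.27, 11.21 and 11.44 in muscle. Abdominal fat lay above muscle and subcutaneous fat overlapped it, and the adipose difference of 0.40 ± 0.12 (adjusted p = 0.0172) was lost with arrays centred on their medians and without muscle replicate 1 or 2 (adjusted p up to 0.0632).

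**Figure D3:**
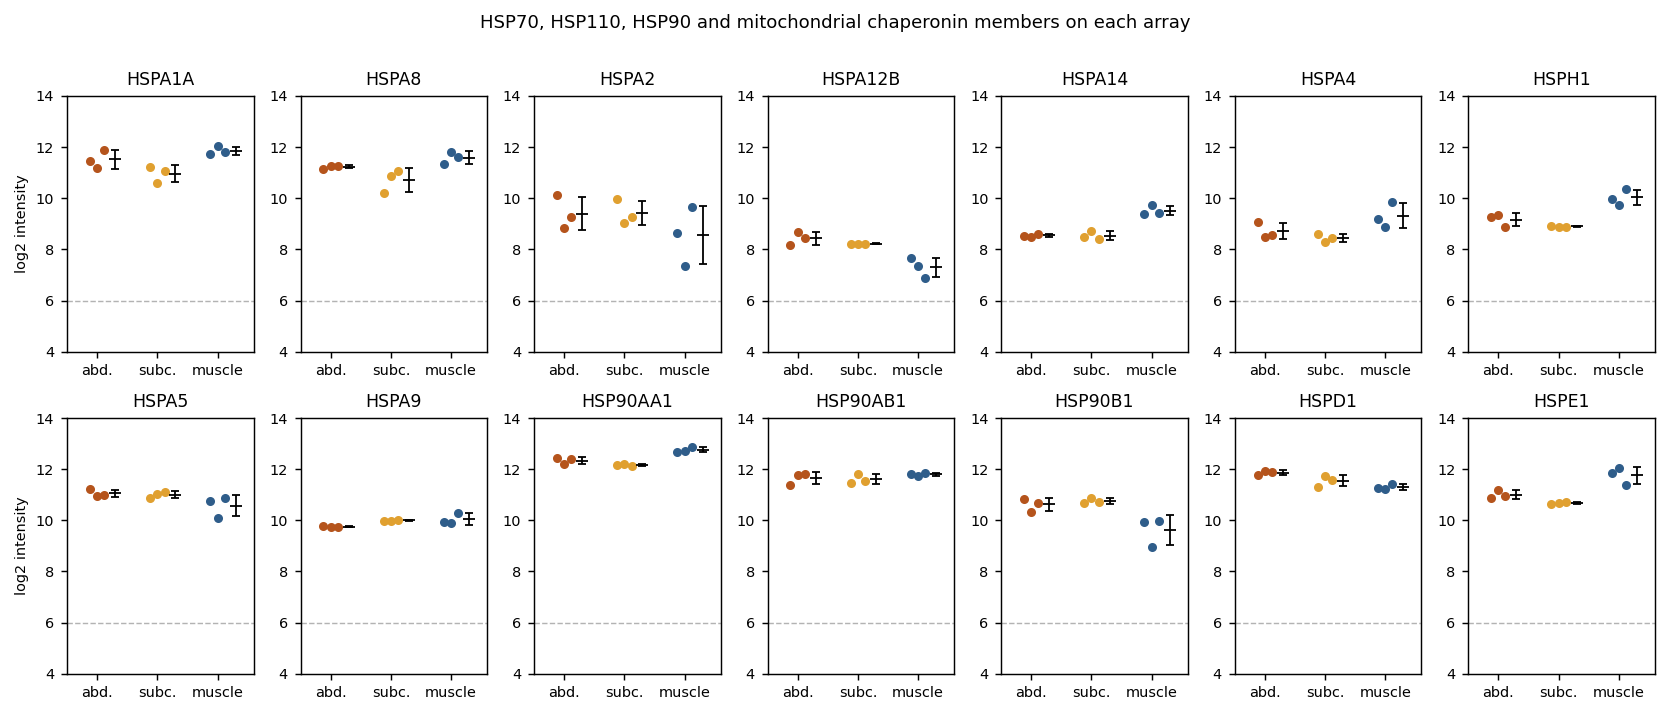
HSP70, HSP110, HSP90 and mitochondrial chaperonin members in abdominal fat (abd.), subcutaneous fat (subc.) and muscle. The vertical axis is log2 intensity, points are arrays (3 per tissue), and black marks are the mean with SD. HSPE1 is lower in fat and HSPD1 slightly higher, and HSP90B1 of the endoplasmic reticulum is higher in fat while HSP90AA1 is lower.

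DNAJ proteins carry a J domain that switches on the ATPase of an HSP70, and each type brings its own clients or place in the cell. In adipose tissue 13 of the 26 measured were lower and 6 higher, where 29.5% of all genes were lower and 32% higher. The median difference of the 26 was -0.34, beside -0.02 over all genes. DNAJA4, a cytosolic J protein, read 7.28, 7.62 and 7.27 in abdominal fat and 7.68, 8.13 and 8.00 in subcutaneous fat, against 11.08, 10.71 and 11.57 in muscle. All fat arrays were far under muscle, by -3.46 ± 0.19 or 11-fold (adjusted p = 5.67e-07). DNAJB5, another cytosolic form, read 6.68, 6.16 and 6.13 in abdominal fat and 6.35, 6.60 and 6.68 in subcutaneous fat, against 9.24, 9.40 and 10 in muscle. It was lower by -3.12 ± 0.19 (adjusted p = 1.08e-06), while a dim second probe set, near 3 in all tissues, showed no call (0.19, adjusted p = 0.254). Averaged, the probe sets of DNAJB5 differed by -1.46.

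DNAJC19, part of the motor that draws proteins into mitochondria, read 9.04, 8.77 and 8.71 in abdominal fat and 9.17, 9.13 and 9.19 in subcutaneous fat, against 11.07, 11.11 and 10.48 in muscle. It was lower in fat without overlap (-1.89 ± 0.15, adjusted p = 6.26e-06). A second DNAJC19 probe set averaged under 3 in all tissues and did not pass (-0.07, adjusted p = 0.705), and the average of both differed by -0.98. DNAJC12, which helps the aromatic amino acid hydroxylases fold, differed by -1.88 ± 0.17, with fat arrays between 7.33 and 7.61 and muscle arrays between 8.88 and 9.69. DNAJC5, the cysteine string protein of secretory vesicles, differed by -1.68 ± 0.15, and DNAJC24, a factor of diphthamide synthesis on elongation factor 2, by -1.54 ± 0.16. All 3 DNAJC24 probe sets were lower in adipose tissue. The mitochondrial DNAJA3 (-1.01 ± 0.17) and DNAJC7, which links HSP70 to HSP90 (-0.90 ± 0.11), were lower by less. None of these genes had a fat array within its muscle range.

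DNAJB6, a nuclear and cytosolic chaperone that is mutated in a limb-girdle muscular dystrophy in humans, was the member with the largest positive difference. It read 9.27, 9.45 and 9.21 in abdominal fat and 9.31, 9.65 and 9.34 in subcutaneous fat, against 7.61, 7.52 and 7.57 in muscle. Both depots lay well above muscle, by 1.81 ± 0.11 (adjusted p = 1.27e-06). DNAJB1, the stress-inducible partner of HSPA1A, read 8.71, 8.62 and 8.24 in abdominal fat and 8.76, 9.05 and 9.09 in subcutaneous fat, against 7.68, 7.35 and 7.74 in muscle. It was higher in fat without overlap (1.16 ± 0.15, adjusted p = 0.000121), the opposite direction to HSPA1A, and a second probe set had 0.51 (adjusted p = 0.0556). DNAJC18, of the endoplasmic reticulum, was 1.21 ± 0.12 higher (adjusted p = 2.59e-05), with fat arrays between 8.79 and 9.27 and muscle arrays between 7.53 and 8.06.

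Endosomal DNAJC13 (0.64 ± 0.22, adjusted p = 0.0354), DNAJC14 (0.62 ± 0.16, adjusted p = 0.00954) and DNAJC3, an inhibitor of the stress kinase PERK (0.54 ± 0.14, adjusted p = 0.00893), completed the higher group. DNAJC3 lost its call with quantile normalization (adjusted p = 0.0524). The call of DNAJC13 was lost in 10 of 18 alternatives, among them each array left out other than muscle replicate 3 and abdominal replicate 2. DNAJB2, DNAJB9, DNAJB11, DNAJC17 and DNAJC27 were lower by 0.32 to 0.79. Of these, DNAJB11 lost its call in 9 and DNAJC17 in 11 of 18 alternatives. DNAJA1, DNAJB12, DNAJC6, DNAJC9, DNAJC10, DNAJC11 and DNAJC22 did not pass, with differences between -0.49 and 0.12. For DNAJC10, a disulfide reductase of the endoplasmic reticulum, the second of 3 probe sets was lower in adipose tissue (-0.81, adjusted p = 9.11e-05) where the brightest was not (-0.10). The rule also took in HSPBP1, an HSP70 exchange factor, and HSPBAP1, named as a partner of HSPB1, which are no small heat shock proteins. HSPBP1 was lower (-0.63 ± 0.14, adjusted p = 0.00332) and HSPBAP1 did not pass (0.12, adjusted p = 0.514).

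**Figure D4:**
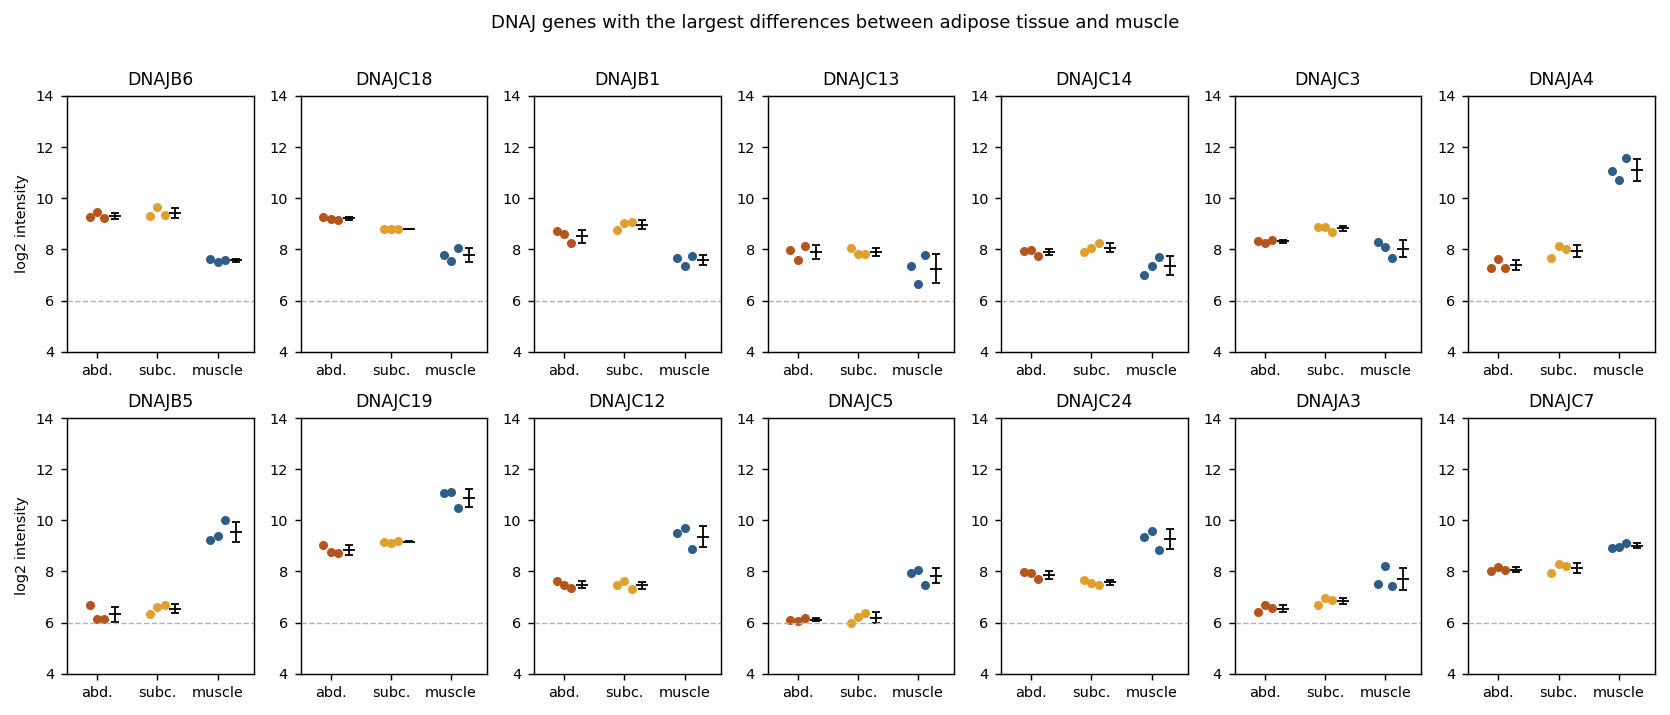
DNAJ genes with the largest passing differences, 6 higher and 8 lower in adipose tissue, in abdominal fat (abd.), subcutaneous fat (subc.) and muscle. The vertical axis is log2 intensity, points are arrays (3 per tissue), and black marks are the mean with SD. DNAJA4 and DNAJB5 show the widest gaps, and DNAJB6 is above 9 in both depots and under 8 in muscle.

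Grouped by place in the cell, the members gave unlike counts. Of 7 members assigned to the endoplasmic reticulum 4 were higher (HSPA5, HSP90B1, DNAJC3, DNAJC18) and 2 lower (DNAJB9, DNAJB11) in adipose tissue, with a median of 0.45. Of 6 mitochondrial members 1 was higher (HSPD1) and 3 were lower (HSPE1, DNAJA3, DNAJC19), with a median of -0.58. Over all genes 32% were higher and 29.5% lower. Set against muscle by itself, abdominal fat had 2 of the 7 higher and 2 lower, and subcutaneous fat 3 and 1. The 6 mitochondrial members had 1 higher and 3 lower in abdominal fat, and 0 and 3 in subcutaneous fat. Of all genes 29.0% were higher and 27.1% lower in abdominal fat, and 30.4% and 25.9% in subcutaneous fat. The abdominal counts of the endoplasmic reticulum members were thus near the shares of all genes. The other measured genes of these compartments are given from whole lists. Of 18 measured genes of folding and stress in the endoplasmic reticulum 10 were higher and 4 lower (median 0.64), the protein disulfide isomerases TXNDC5 (1.73), PDIA3 (1.70) and PDIA4 (1.24) being higher. The lower ones included the stress regulator ATF4 (-0.87), SELENOK (-0.74) and PPP1R15A (-0.62). PPP1R15A lost its call without muscle replicate 3 (-0.36, adjusted p = 0.0992). PDIA4 was 0.77 higher when its probe sets were averaged. Fibroblast markers, whose cells secrete collagen, were higher too, 6 of 7, with sums of 31576 to 42829 in abdominal and 40881 to 45068 in subcutaneous fat against 12241 to 20096 in muscle, lowest in muscle replicate 2. Their part in the result was not tested. In the list of mitochondrial protein import and quality control 7 of 10 were lower, such as the protease YME1L1 (-1.46) and the import subunits TIMM23 (-1.19) and TIMM44 (-1.15), and 1 was higher, the stress regulator ATF5 (2.48).

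Of 38 measured co-chaperones of HSP70 and HSP90, 19 were lower in adipose tissue, 8 were higher and 11 did not pass, with a median of -0.33. Of all genes 29.5% were lower, 32% higher and 61.4% either. UNC45B, which folds the myosin head with HSP90 in striated muscle, read 4.94, 4.68 and 4.45 in abdominal fat and 4.94, 4.86 and 4.72 in subcutaneous fat, against 10.65, 10.83 and 10.26 in muscle. It was near background on all fat arrays and differed by -5.82 ± 0.15 (adjusted p = 5.61e-09). Its general form UNC45A, named here after its value was seen, was 0.81 ± 0.12 higher in adipose tissue. ITGB1BP2 (melusin), a muscle co-chaperone of HSP90, differed by -4.90 and BAG2, an HSP70 exchange factor, by -3.27. BAG3, the partner of HSPB8, read 10.66, 10.49 and 10.31 in abdominal fat and 11.26, 10.85 and 10.51 in subcutaneous fat, against 11.94, 11.58 and 12.59 in muscle. It was lower without overlap by -1.36 ± 0.23 (adjusted p = 0.000694), a smaller difference than that of HSPB8. Higher were the auxilin relative GAK (1.83, and 0.52 when its probe sets were averaged), BAG4 (1.57) and SEC63 (1.41), a J protein of the endoplasmic reticulum translocon.

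The transcription factors of the heat shock response were lower as well. HSF1, the master regulator of inducible chaperones, read 7.45, 7.59 and 7.78 in abdominal fat and 7.41, 7.74 and 7.78 in subcutaneous fat, against 9.25, 9.23 and 9.60 in muscle. The fat arrays lay under the muscle arrays throughout, by -1.73 ± 0.14 (adjusted p = 5.34e-06). HSF2 differed by -1.63 and HSF4, with fat means under 6, by -1.10. SERPINH1 (HSP47), the collagen chaperone, was 1.85 higher. HSF2BP was 0.79 higher, but 0.15 (adjusted p = 0.313) when its probe sets were averaged. HSF1 differed by -1.09 when averaged in that way. Thus 3 of the 5 measured genes of that list were lower. Of 12 chaperonin and prefoldin genes 8 were lower and 0 higher by limma, also 0 higher at an unadjusted p under 0.05, and the lower ones included VBP1 (-1.95), PFDN1 (-1.90) and PFDN2 (-0.92). Of 8 genes of chaperone-assisted autophagy and its Z-disc clients 6 were lower, led by the structural proteins MYOT (-7.83), LDB3 (-5.66) and FLNC (-4.43), and MAP1LC3A was higher (1.02). Immediate-early genes, which respond to handling of tissue, moved the other way. Of 14 measured 9 were higher in adipose tissue and 0 lower by limma, also 0 lower at an unadjusted p under 0.05, with EGR1 at 2.58 (1.0 when its probe sets were averaged), KLF4 at 1.80 and MYC at 1.79. Of all genes 32% were higher and 29.5% lower. Set against muscle by itself, abdominal fat had 11 of the 14 higher and 0 lower, where 29.0% and 27.1% of all genes were. Subcutaneous fat had 6 higher and 1 lower, where 30.4% and 25.9% of all genes were. The part of the immediate-early genes in the values of inducible chaperones was not tested.

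Each depot was also set against muscle by itself, with the same muscle arrays in both comparisons. In abdominal fat 23 members were lower and 7 higher, where 27.1% of all genes were lower, 29.0% higher and 56.1% either. In subcutaneous fat 25 were lower and 7 higher, where 25.9% of all genes were lower, 30.4% higher and 56.2% either. HSPB6 differed by -4.61 ± 0.22 in abdominal and -3.65 ± 0.22 in subcutaneous fat, and HSPB8 by -3.31 ± 0.17 and -2.57 ± 0.17. HSPA8 differed by -0.36 ± 0.22 (adjusted p = 0.209) in abdominal and -0.87 ± 0.22 (adjusted p = 0.00913) in subcutaneous fat. HSPA1A differed by -0.34 ± 0.21 (adjusted p = 0.228) and -0.90 ± 0.21 (adjusted p = 0.00654), and HSPA4 by -0.61 ± 0.25 (adjusted p = 0.0705) and -0.87 ± 0.25 (adjusted p = 0.0164), in abdominal and subcutaneous fat in that order. HSPB3 had its larger difference in subcutaneous fat, at -2.21 ± 0.41 in abdominal and -5.21 ± 0.41 in subcutaneous fat. DNAJA1, a main HSP40 of the cytosol, was lower than in muscle in subcutaneous fat (-0.72 ± 0.17, adjusted p = 0.00625), and in abdominal fat the difference was 0.01 (adjusted p = 0.97). Its arrays read 8.20, 8.46 and 8.69 in abdominal fat and 7.72, 7.92 and 7.52 in subcutaneous fat, against 8.21, 8.56 and 8.55 in muscle.

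Between the depots themselves 1 member passed, HSPB3, where 1.5% of all genes did, 0.808% higher and 0.688% lower in abdominal fat. It was higher in abdominal than in subcutaneous fat by 3.0 ± 0.41 (limma adjusted p = 0.0164), and lay above on 3 of 3 arrays. With subcutaneous fat near background, the size of this difference is not exact. The adjusted p for HSPB3 was 0.0494 without abdominal replicate 3 and 0.0488 without subcutaneous replicate 3. Of 14 muscle fibre markers 0 passed between the depots by limma, and 1 was higher in abdominal fat at an unadjusted p under 0.05. Their sum, which includes the 2 higher in fat than in muscle, was 5922, 7448 and 3870 on abdominal replicates 1, 2 and 3. HSPB3 read 8.91, 7.23 and 7.67 on these arrays. Markers of mesothelium, which covers abdominal organs, had sums of 804, 149 and 521 on these arrays and 156 to 211 in subcutaneous fat. The defining mesothelial marker MSLN averaged 5.71 in abdominal and 4.07 in subcutaneous fat (adjusted p = 0.122). Of 5 mesothelial markers 0 passed by limma and 3 were higher in abdominal fat at an unadjusted p under 0.05, and their part in the HSPB3 values was not tested.

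No member was lower in abdominal than in subcutaneous fat by limma's adjusted p. At an unadjusted p under 0.05, 6 were higher and 6 lower, where 7.65% of all genes were higher and 10.4% lower. HSPB6 (-0.96 ± 0.22, adjusted p = 0.0734) and HSPB8 (-0.74 ± 0.17, adjusted p = 0.066) came nearest, and their depots did not overlap. Both passed with array weights and without muscle replicate 3 (lowest adjusted p 0.0228 and 0.0192). DNAJA1 was nearest in the other direction (0.73 ± 0.17, adjusted p = 0.0735), and it passed with array weights (adjusted p = 0.0388). HSPA1A (0.56 ± 0.21, adjusted p = 0.253) and HSPA8 (0.51 ± 0.22, adjusted p = 0.33) did not pass. Stress-inducible DNAJB1 went the other way without overlap (-0.44 ± 0.17, limma adjusted p = 0.266), while its second probe set had 0.28 (adjusted p = 0.672). Immediate-early genes had the direction of DNAJA1, HSPA1A and HSPA8, and not that of HSPB6, HSPB8 and the brightest DNAJB1 probe set. Of 14 immediate-early genes 9 were higher in abdominal fat at an unadjusted p under 0.05, against 7.65% of all genes, and 0 by limma's adjusted p. Their sums were 30826 to 36949 in abdominal fat, against 19568 to 26008 in subcutaneous fat, and their part was not tested. A second HSP90AA1 probe set read 11.06, 10.90 and 11.31 in abdominal fat, against 10.49, 9.76 and 9.62 in subcutaneous fat. It was higher in abdominal fat without overlap (1.13 ± 0.22, adjusted p = 0.0431), while the brightest HSP90AA1 probe set differed by 0.17 (adjusted p = 0.607). Of the 48 members 19 (39.6%) had depots that did not overlap, 8 higher and 11 lower in abdominal fat, where 28.6% of all genes did, 10.7% higher and 17.9% lower.

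**Figure D5:**
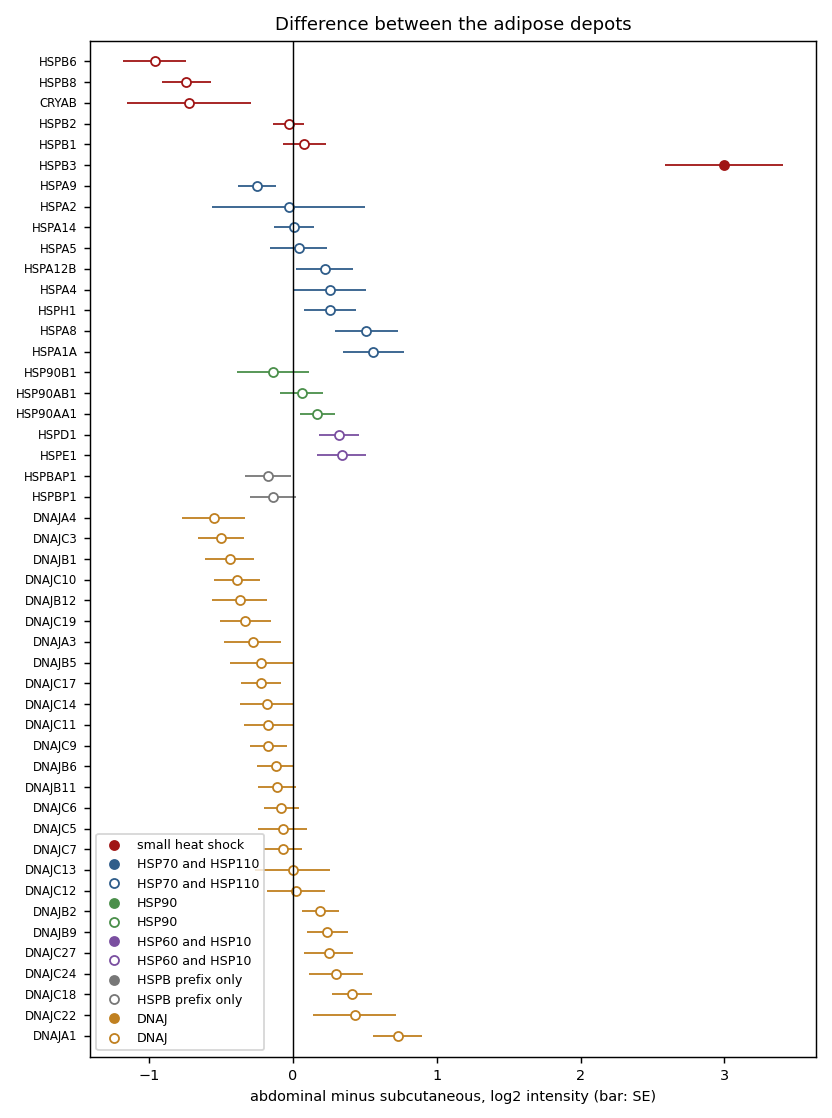
Difference between abdominal and subcutaneous fat for each of the 48 members, by family. The horizontal axis is abdominal minus subcutaneous in log2 intensity, bars are standard errors, and filled points passed an adjusted p under 0.05. HSPB3 stands alone at 3.0, and the other members lie between -0.96 and 0.73.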

How the data were processed

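The authors' deposited values are linear intensities from 3.06 to 17450.5, with 1 value for each of 24128 probe sets on each array. RMA was used, per the submitters' processing notes (version and parameters: not given in the sources used here). Deposited intensities were turned into log2 values for this work, with no further normalization and no filter. Without 112 control probe sets, 24016 entered the tests. Names came from the array annotation, updated through gene identifiers (13263 probe sets, and 29 kept the annotation's symbol), while 86 had several symbols and 10638 none. No pair of arrays was identical.

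All 9 arrays entered 1 limma fit (version 3.58.1, lmFit and eBayes, R 4.3.3) with a mean per tissue, with 6 residual and 3.752 prior degrees of freedom. Tests were two-sided, with Benjamini-Hochberg adjustment over all probe sets tested. An SE is the moderated standard error. The procedure was tested on simulated data. The number of arrays limits the precision. The members and the 17 lists, with 174 of 219 genes measured, were chosen with earlier results of these data known, so no set test was made. The text names all HSPA, HSPH, HSP90, HSPD, HSPE and small heat shock members, the 8 largest passing DNAJ differences each way, those past the threshold between depots, the 4 brightest DNAJ genes, other probe sets of named genes with another call, and up to 3 passing genes per list and direction. BAG3, HSF1 and UNC45B were named whatever their value. Other DNAJ genes, and genes beside these, were named after their values were seen. No sequence was used. Python 3.11.15 with pandas 2.3.3 and matplotlib 3.10.9 made the tables and plots.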

Additional observations from a re-analysis of the deposited data

Results flagged for a closer look

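The difference from muscle was unlike in the depots, by the test of the difference itself, for 2 of the 75 probe sets of members. Of all 24016 probe sets tested 1.31% passed by the same rule. For HSPB3 abdominal fat exceeded subcutaneous fat by 3.0 (limma adjusted p = 0.0164). For the second probe set of HSP90AA1 abdominal fat exceeded subcutaneous fat by 1.13 (adjusted p = 0.0431), and the brightest probe set of that gene differed by 0.17 (adjusted p = 0.607).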

How the results depend on the processing

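Of the 36 members called between adipose tissue and muscle, 27 kept their call in every one of the 18 alternatives run, and 9 lost it in at least 1. The small heat shock proteins had 5 lower in each alternative except averaging a gene's probe sets, where HSPB1 passed too. Their median ranged from -3.47 to -3.21 with arrays left out. The median of the other families was -0.46 with centred arrays, -0.48 with quantile normalization and -0.40 to -0.30 with arrays left out. Between the depots, 2 members were higher and 2 lower with array weights, 0 were higher at an adjusted p under 0.01, and with arrays left out 0 to 2 were lower, 2 of them without muscle replicate 3. Between adipose tissue and muscle, signs of members turned only for differences that did not pass. These were DNAJB12 (-0.023 centred, -0.08 quantile, -0.13 to 0.26 with arrays left out), DNAJC9 (0.032 with array weights, -0.15 to 0.0048 with arrays left out), HSPB1 (-0.23 to 0.012) and HSPBAP1 (-0.0016 centred, -0.043 to 0.22). Between the depots, signs were followed for 9 members only, the small heat shock proteins, HSPA1A, HSPA8 and DNAJA1. Of these the sign turned for HSPB2 (-0.06 to 0.0015), and the signs of the other members were not followed there. The cause was not tested. The leading number of the sample title gives a replicate block, and the deviations of 7 same-numbered pairs of arrays from their tissue means correlated at 0.0431 to 0.362, against -0.324 to 0.17 for 20 other pairs. Of 8 arrays with a same-numbered partner 6 correlated best with their own number, a hint from the data and not from the labels. Because 2 of the 7 were under 0.1, the number was not taken as pairing. With the replicate block 11 members were higher and 25 lower in adipose tissue, and 1 was higher between the depots. Among the genes named, it ended the calls of DNAJB11, DNAJC17 and PPP1R15A and gave calls to HSPA2 and DNAJA1. Probe sets near background and near the top of the scale limit the sizes given.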

Other observations

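HSPA2 had like values on fat arrays with the same leading number in the sample title. Arrays numbered 4 read 10.12 in abdominal and 9.96 in subcutaneous fat, and those numbered 5 read 8.82 and 9.04. The remaining abdominal and subcutaneous arrays, whose numbers differ from each other, were as close, at 9.26 and 9.28. In muscle the array numbered 5 was lowest as well, at 7.37. The muscle array numbered 4 was not highest, at 8.66 against 9.65 on muscle replicate 3. The labels do not say what the number stands for. With that number as a replicate block HSPA2 was higher in adipose tissue by 1.01 (adjusted p = 0.0334), and without muscle replicate 3 by 1.40 (adjusted p = 0.0217).

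Muscle replicate 2 was the lowest muscle array for HSP90B1 (8.96), HSPA5 (10.11), HSPA2 (7.37) and DNAJC13 (6.64). The same array had the lowest muscle sums of fibroblast markers (12241), adipocyte markers (4193) and macrophage markers (960).

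Probe sets of 1 gene gave unlike answers for several members. The 6 HSPA1A probe sets differed between adipose tissue and muscle by -1.64 to 0.41, and those of DNAJC10 by -0.81 to -0.10.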
